A study of Mus musculus with 38 samples.

Results

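The data are 10 control retinas, 5 taken at postnatal day 3 (P3) and 5 at postnatal day 6 (P6), out of 38 mouse retinas in the series. They were chosen by genotype and age as labelled, with no use of measured values. The controls were Crb2 F/+ mice with a Cre active in retinal progenitors, on a C57BL/6J background, free of the rd8 change of Crb1 and of mutations in pde6b. They are therefore not wild type: each carries a floxed allele of the polarity gene Crb2 and the Cre, which acts in a mosaic of cells. Conditional knockouts (cKO, Crb2 F/F with the same Cre) served here as the same interval in other retinas. Each sample was total RNA of an unpooled neural retina without its pigment epithelium. A control retina and a cKO retina of equal age were hybridised together on each Agilent array, in Cy3 and Cy5. Retinas at P0 and P10 complete the series, with 4 per genotype at P10 as the labels group them. A supplementary table of the study gives the opposite genotype for these P10 retinas and another the same as the labels, so every control value at P10 below holds only as labelled.

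In the mouse, the retina is still made of dividing progenitors and newborn neurons in the days after birth. Late progenitors produce rods, bipolar cells, some amacrine cells and the Müller glia, and division ends in the centre of the retina before it ends at the rim. Cells that leave the cycle switch off the genes of DNA replication and mitosis, which E2F factors and related complexes drive, and photoreceptor genes come under the control of the factors Crx, Nrl and Nr2e3. The comparison of P6 with P3 asks which genes and cell programmes rise or fall as proliferation ends.

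Between 63.9% and 70.2% of the array features were well above background in the P3 retinas, and between 67.3% and 70.2% in the P6 retinas. P3 replicates 1 to 3 carried Cy5 on slide 2, and P3 replicates 4 and 5 carried Cy3 on slide 3. P6 replicates 1 and 2 also carried Cy3 on slide 3, while P6 replicates 3 to 5 carried Cy5 on slide 4 and were scanned on a later day than the other 7. The ages can thus be compared on equal terms within slide 3, with 2 retinas of each age, and those values stand beside the results. Levels below are log2 intensities and differences are P6 minus P3 on the log2 scale, with adjusted p from limma after Benjamini-Hochberg adjustment over 39283 probes and a threshold of 0.05. A gene with several probes is given by its brightest. Where no retina of either age overlapped the other age, the exact two-sided permutation p was 0.00794, the smallest that 5 against 5 can give. The number of arrays limits the precision of every value.

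The label holds against retinal markers. Genes of rods and of bipolar, amacrine, ganglion and Müller cells included members well above background at both ages, with the summed level of the rod list between 17.86 and 18.21 at P3. Pigment cell and lens transcripts were also present, in amounts that varied between retinas. The pairwise Pearson correlation across probes, which are not independent replicates, was 0.986 to 0.993 among P3 retinas and 0.983 to 0.991 among P6 retinas. Between the ages it was 0.979 to 0.984.

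From P3 to P6 transcripts of dividing cells fell in the control retina, and those of photoreceptors and bipolar cells rose. Of 39283 probes, 10104 passed the threshold (25.7%), 5157 of them higher at P6 and 4947 lower. Counting each of 31797 genes by its brightest probe, 4326 were higher (13.6%) and 3762 lower (11.8%), around a median of -0.00 over all genes. Most changes were small: the median size among the 8088 genes past the threshold was 0.49. A change of over 2-fold was found in 600 genes that rose and 571 that fell, and over 4-fold in 83 that rose and 152 that fell. Within slide 3, with 2 retinas of each age, 1460 probes passed (741 higher, 719 lower), and with slide as a block 8532 did. Scaling each channel to its 75th percentile instead of quantiles left 5284 (2930 higher, 2354 lower). When only the 25119 probes well above background in a group were tested, 10457 of them passed (5356 higher, 5101 lower). These are the shares to set beside the list counts below. Members of the lists were chosen with earlier results of these data known, so their counts are descriptions.

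**Figure D1:**
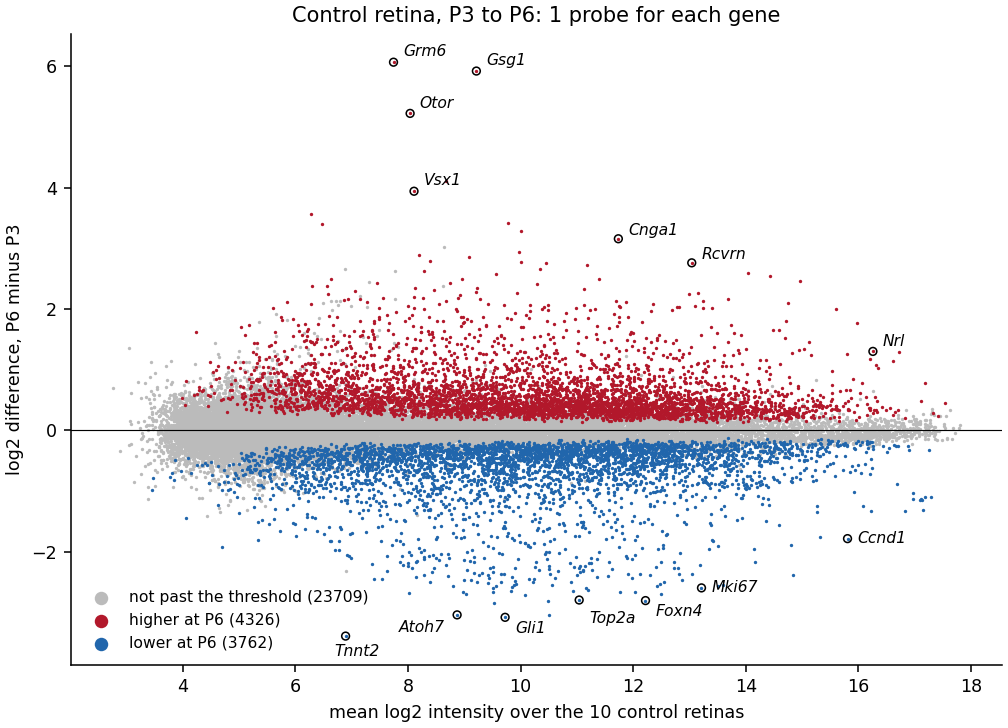
Each point is a gene, by its brightest probe: the horizontal axis is its mean log2 intensity over the 10 control retinas and the vertical axis its log2 difference, P6 minus P3, with colour for the 4326 genes higher and the 3762 lower past the threshold. Circled genes are named. Grm6 was at background at P3 and Tnnt2 at P6, so the heights of these 2 points are not measured sizes.

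The retinas of slide 3 and the Cy5 retinas of slides 2 and 4 give 2 estimates from separate retinas, whose animals the labels do not name. Across the 8088 genes past the threshold in all 10 retinas, the signs were equal for 8065 genes (99.7%), and across the 1171 of these that changed over 2-fold they were equal for 1170 (99.9%). Since both sets took part in the choice of those genes, the share over all 31797 genes is the plainer figure: 21435 (67.4%), with a Pearson correlation across genes of 0.58.

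**Figure D2:**
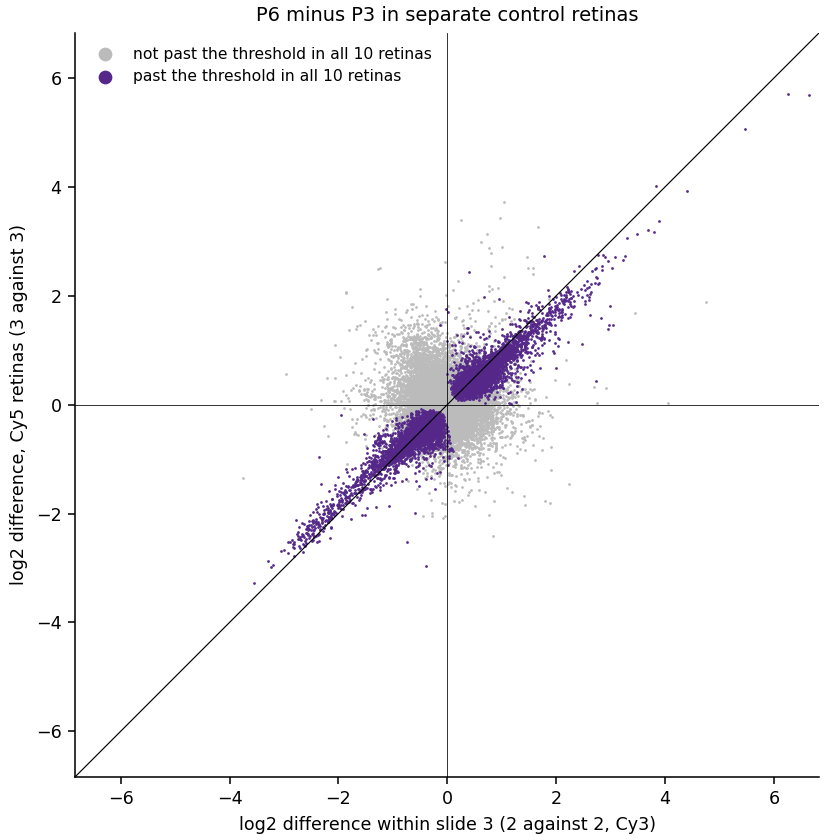
Each point is a gene, with its log2 difference P6 minus P3 among the Cy3 retinas of slide 3 (2 against 2) on the horizontal axis and among the Cy5 retinas (3 against 3) on the vertical axis; the diagonal marks equal values. The genes past the threshold in all 10 retinas (purple) lie along the diagonal, with a Pearson correlation across genes of 0.96, and the others (grey) form a cloud around 0.

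Transcripts of the cell cycle fell together. Mki67, the nuclear protein used to mark cycling cells, measured 14.47, 14.64, 14.35, 14.51 and 14.58 at P3 and 12.02, 11.81, 11.93, 11.77 and 12.04 at P6 (probe on mm9 chr7:142881591-142881650). Every P6 retina lay below every P3 retina, by more than 2 log2 units. The difference was -2.60 (SE 0.13, adjusted p 7.59e-17), or 6.04-fold, with -2.63 within slide 3 and -2.62 with slide as a block, and another probe of the gene gave -2.51. Top2a, the topoisomerase that untangles chromosomes before they separate, stood at 12.55, 12.51, 12.23, 12.43 and 12.46 at P3 and 9.70, 9.55, 9.59, 9.64 and 9.72 at P6 (mm9 chr11:98855522-98855581). Its groups were as far apart, and within each age the 5 retinas spanned under 0.4 units. Top2a fell by 2.79 (SE 0.11, adjusted p 1.52e-19), the largest fall in the mitosis list. In whole retinas, fewer cells of a type and less RNA per cell cannot be told apart.

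All but 1 of the 45 measured mitosis genes fell and none rose, with a median of -2.36 (-2.47 within slide 3 and -2.38 with slide as a block). Members that fell ranged from -2.79 for Top2a to -1.51 for Hmmr. Among them were the mitotic kinase gene Pbk at -2.67 and Ect2, an exchange factor needed for the cleavage furrow, at -2.60. Fbxo5, an inhibitor of the anaphase promoting complex outside the list, fell by 2.28. The exception was Aurkb, whose probe was not well above background in any retina of either age. Spc25, a kinetochore component and the brightest member by its mean over both ages, as for every list below, went from a mean of 15.75 to 13.87. Gpsm2, which orients the spindle, fell by 1.60 and then rose by 0.59 toward P10.

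Every measured gene of the DNA replication list fell as well, 46 of 46 (45 with slide as a block), but less steeply, with a median of -1.46 (-1.47 within slide 3, -1.47 with slide as a block). Uhrf1, which helps to copy DNA methylation behind the fork, had levels of 13.82, 13.76, 13.71, 13.98 and 13.89 at P3 and 11.22, 10.78, 11.17, 11.13 and 11.41 at P6. The ages did not overlap. It fell by 2.69 (SE 0.15, adjusted p 5.62e-16). Cdc6, which loads the helicase at origins, fell by 2.68, from a P3 mean of 9.36 to a P6 mean of 6.68. Pcna, the sliding clamp and the brightest member, measured 15.02, 14.79, 14.77, 14.93 and 14.95 at P3 and 13.61, 13.52, 13.93, 13.75 and 13.61 at P6. It fell by only 1.21, 2.31-fold, although no P6 retina reached the P3 range. The smallest fall in the list was -0.18 for Gins3. With Orc1 at the bound set by its background the list's median was the same, -1.46. Aunip, a partner of the mitotic kinase Aurora A, was among the 10 steepest falls outside these lists, at -2.70.

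Genes above background at P3 alone included repair factors. Fancd2, which acts on DNA crosslinks, was well above background in 5 of 5 retinas at P3 and 0 of 5 at P6, and was at least 2.45-fold lower. Brca1, a repair gene of the S and G2 phases, had the same pattern and was at least 2.55-fold lower. Tnnt2, a troponin known from heart muscle, stood at 8.79, 8.49, 8.40, 8.42 and 8.82 at P3 and 4.96, 5.18, 5.35, 5.36 and 5.13 at P6. It was at least 8.04-fold lower when P6 is taken at its background limit. Ccdc60 was at least 3.12-fold lower, with P3 replicate 4 at 8.20 above the others at 7.01 to 7.26, and Herc6 at least 2.48-fold lower. In all, 19 genes were well above background in all P3 retinas and no P6 retina, against 49 with the reverse pattern.

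The regulators of G1 were divided. Of 22 measured cyclins, kinases and E2F factors 14 fell, 1 rose and 7 did not pass, with a median of -0.51 (-0.58 within slide 3). E2f8 and E2f7, the repressor E2Fs made in S phase, fell by 2.71 and 2.48, though another probe of E2f7 gave -0.23 with an adjusted p of 0.101. Ccnd1, the D cyclin of retinal progenitors, read 16.52, 16.62, 16.49, 16.88 and 16.98 at P3 and 15.18, 14.93, 14.71, 14.84 and 14.92 at P6. P6 replicate 1 was the highest of its age yet lay more than 1 unit under every P3 retina. Ccnd1 fell by 1.78 (SE 0.13, adjusted p 2.29e-13), in the brightest probe of its list. Rbl2, the pocket protein of resting cells, was the member that rose, by 0.32, a call that was lost with slide as a block. Mycn, at 0.13 with an adjusted p of 0.411, did not pass.

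The inhibitors of cyclin-dependent kinases moved both ways, 2 of 7 up and 3 down. Cdkn1c (p57), an inhibitor linked to cell cycle exit in the retina, measured 12.52, 12.49, 12.85, 12.59 and 12.63 at P3 and 13.48, 13.07, 13.34, 13.05 and 13.05 at P6. It rose by 0.58 (adjusted p 2.05e-05) without overlap. Cdkn2b rose by 0.86, while its other probe, which was dim, did not pass. Cdkn2c (p18) and Cdkn2a, which encodes p16 and p19Arf, fell by 1.37 and 1.20. Cdkn1b (p27), the inhibitor of postmitotic retinal cells, gave -0.21 with an adjusted p of 0.0921 and overlapping ages (exact permutation p 0.0317). A dimmer probe of Cdkn1b was lower by 0.51 with an adjusted p of 0.00497, so the gene's probes differ in their call. The list's median was -0.24.

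Promoters of the replication, mitosis and G1 lists, the last of them divided, were searched on both strands for motifs known from cell cycle genes. The search covered the 250 bases before the start site in RefSeq annotation (GRCm38.p6). The table holds 27025 promoters, and 37 of 46 replication genes, 37 of 45 mitosis genes and 15 of 22 G1 genes were in it. The E2F letters TTTCGCGC, TTTGGCGC, TTTCCCGC or TTTGCCGC occurred in 9 replication promoters (24.3%), 6 G1 promoters (40%) and 1 mitosis promoter (2.7%), against 1.91% of all promoters. The cell cycle homology letters (CHR) TTTGAA or TTCGAA were in 10 mitosis promoters (27%) against 17.4% of all. Bipolar (6 of 22, 27.3%) and endothelial promoters (4 of 12, 33.3%) held them at least as often, and the remaining lists less often. Over the whole 300-base window, which adds 50 bases after the start site, the CHR letters were in 27 mitosis promoters (73%) against 19.4% of all. CCAAT stood in 27 mitosis promoters (73%) and 23 replication promoters (62.2%), against 34.5% of all. Other lists also held it often, among them pigment epithelium (8 of 10, 80%), outer segment and cilium (14 of 24, 58.3%) and Notch (11 of 19, 57.9%). These counts describe letters and do not show binding. The 150 bases before the start site are printed for Mcm6, a subunit of the replicative helicase that fell by 2.16, Cdk1, the mitotic kinase that fell by 2.28, and Top2a, with matches in capitals. They were chosen after the matches were seen, for holding several. Mcm6 (chr1:128359706-128359855, minus strand) has E2F letters that start 110, 106 and 47 bases before the start site, the pair farthest from it overlapping on opposite strands, and CCAAT on the reverse strand. Cdk1 (chr10:69352913-69353062, minus strand) has E2F letters, TTTGAA at 71 and 15 bases and reverse CCAAT. Top2a (chr11:99024190-99024339, minus strand) has TTCGAA at 140 and 120 bases, a word that reads the same on both strands, TTTGAA reversed at 23 bases and CCAAT in both directions.
Mcm6: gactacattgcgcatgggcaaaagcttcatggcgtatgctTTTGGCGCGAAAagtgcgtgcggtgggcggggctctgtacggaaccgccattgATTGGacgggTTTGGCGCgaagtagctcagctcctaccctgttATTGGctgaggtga
Cdk1: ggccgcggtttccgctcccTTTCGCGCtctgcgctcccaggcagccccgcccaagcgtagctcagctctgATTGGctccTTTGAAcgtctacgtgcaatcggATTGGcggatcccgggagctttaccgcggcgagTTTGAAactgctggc
Top2a: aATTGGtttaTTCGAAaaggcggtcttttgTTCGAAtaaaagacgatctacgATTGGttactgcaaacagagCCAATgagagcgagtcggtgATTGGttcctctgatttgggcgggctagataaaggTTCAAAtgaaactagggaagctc

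Transcription factors of progenitors fell with the cell cycle, and some of them further than most cycle genes. Of 30 measured progenitor genes 20 fell, 3 rose and 7 did not pass, with a median of -0.78 (-0.86 within slide 3). Atoh7, the factor that starts ganglion cell fate, read 10.51, 10.38, 10.08, 10.42 and 10.57 at P3 and 7.56, 6.83, 7.39, 7.55 and 7.43 at P6. The ages were separated by more than 2.5 units, and P6 replicate 2 was the lowest. It fell by 3.04 (SE 0.17, adjusted p 2.41e-16), 8.23-fold. Foxn4, which primes progenitors for amacrine and horizontal fates, fell by 2.80, from a mean of 13.62 to 10.82. Fgf15, a growth factor of the progenitor layer, measured 11.86, 11.84, 11.48, 11.94 and 12.32 at P3 and 9.35, 9.05, 9.09, 8.96 and 8.98 at P6. It fell by the same amount, with no overlap.

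The risers of the list included genes that newborn neurons use. Insm1, a zinc finger factor of such neurons, measured 15.01, 15.21, 15.39, 15.04 and 15.15 at P3 and 16.05, 16.05, 15.83, 15.80 and 15.81 at P6. The ages did not overlap, and it rose by 0.75 (adjusted p 5.47e-08). Neurod1, a photoreceptor and amacrine factor, rose by 0.41, with 0.24 and no call for its other probe. Rax, the eye field factor, was among those that did not pass, at -0.18 (adjusted p 0.233). Hmga1 was the brightest member.

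Rod genes rose almost without exception, 33 of 36 with none lower, and a median of 1.67 (1.91 within slide 3 and 1.79 with slide as a block). Among the members described here, enzymes and channels of phototransduction rose most. Pde6a, the alpha subunit of the rod phosphodiesterase, gave 8.08, 8.53, 8.75, 8.51 and 7.94 at P3 and 11.70, 11.74, 11.61, 11.67 and 11.49 at P6. P3 replicate 5 was the lowest and every P6 retina stood above the P3 range by more than 2.5 units. Pde6a rose by 3.28 (SE 0.17, adjusted p 1.08e-16), 9.72-fold, with 3.49 within slide 3. Cnga1, the cyclic nucleotide gated channel, rose by 3.16, the kinase gene Grk1 by 2.94, transducin Gnat1 by 2.86, recoverin (Rcvrn) by 2.76, Pde6b by 2.72 and arrestin (Sag) by 2.16. In Grk1, P6 replicate 1 was lower than the other 4, at 11.04 against 11.46 to 11.62, and still above all P3 retinas. Slc24a1 was above background at P6 only, and with it at its bound the list's median was unchanged.

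Factors that specify rods rose in part. Nrl, the rod determinant and the brightest member, measured 15.54, 15.71, 15.75, 15.49 and 15.53 at P3 and 16.96, 16.87, 16.89, 17.02 and 16.81 at P6. It rose by 1.30 (adjusted p 1.15e-10) from a high level. Nr2e3, which acts with Nrl to hold cone genes down, read 13.56, 14.02, 14.16, 13.75 and 13.58 at P3 and 15.98, 15.54, 15.46, 15.49 and 15.64 at P6. Its rise was 1.81, larger within slide 3 at 2.09. Crx, the factor shared by rods and cones, rose by 0.86, and its P6 retinas ran from 13.08 to 13.51 against 12.41 to 12.66 at P3. Otx2, which acts upstream of Crx and persists in bipolar cells, gave 0.07 with an adjusted p of 0.799. Prdm1, which favours photoreceptor over bipolar fate, gave -0.19 with an adjusted p of 0.209, and P6 replicate 3 was low at 12.38. Mef2c, not above background in either age, and Rgs9 were among the members that did not pass.

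The CRX and OTX letters TAATCC were in the 250 bases before the start site of 12 of 24 rod genes (50%), 3 of 14 cone genes (21.4%), 4 of 22 bipolar genes (18.2%), 2 of 24 outer segment and cilium genes (8.33%), 4 of 10 pigment epithelium genes (40%) and 0 of the 37 replication and 37 mitosis promoters, against 6.38% of all. The letters TGCTGA, the core of the site that NRL binds, were in 6 of 24 rod promoters (25%) and 2 of 24 of the outer segment and cilium list (8.33%), against 15.8% of all. Lens genes (11 of 15, 73.3%), endothelial genes (5 of 12, 41.7%) and progenitor factors (7 of 23, 30.4%) were among the lists with larger shares than rods. No entry was in the table for Pde6a, Gnat1 and Rcvrn. Sag (chr1:87803530-87803679, plus strand) and Crx (chr7:15879956-15880105, minus strand) are printed as an effector and a regulator of the rod list, picked after the matches were seen, with the 150 bases before the start site and matches in capitals. Sag has TAATCC on the reverse strand at 87 bases. Crx has it on the reverse strand at 94 and 21 bases, beside a CCAAT at 65 bases.
Sag: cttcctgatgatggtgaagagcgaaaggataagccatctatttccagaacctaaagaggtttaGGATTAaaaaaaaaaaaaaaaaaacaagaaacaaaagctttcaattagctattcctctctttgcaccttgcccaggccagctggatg
Crx: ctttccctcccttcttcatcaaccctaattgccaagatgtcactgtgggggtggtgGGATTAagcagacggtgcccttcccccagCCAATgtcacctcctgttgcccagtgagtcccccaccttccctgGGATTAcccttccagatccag

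**Figure D3:**
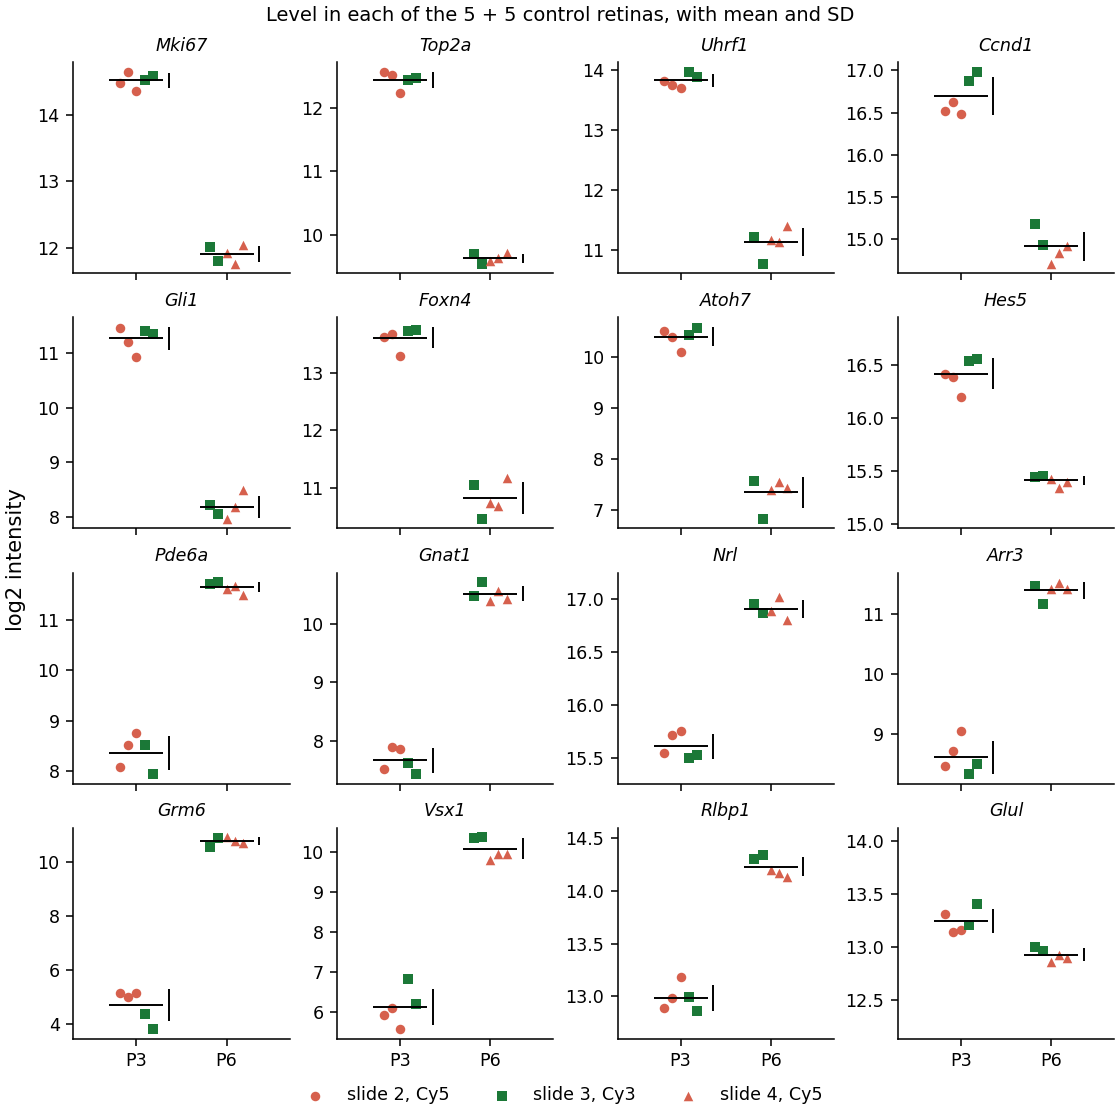
Each panel gives the log2 intensity of a gene (vertical axis) in the 5 control retinas of P3 and the 5 of P6, with shape for the slide, colour for the dye, a horizontal line at the mean and a vertical bar of 1 SD to each side. Cell cycle, progenitor and signalling genes lie lower at P6 in the upper panels, and rod, cone, bipolar and Müller genes higher in the lower panels, except Glul at -0.32.

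Cone genes rose in part, 13 of 18 with 1 lower and a median of 0.58 (0.73 within slide 3). Arr3, cone arrestin, had levels of 8.47, 8.71, 9.05, 8.34 and 8.50 at P3 and 11.46, 11.16, 11.42, 11.52 and 11.41 at P6. No P6 retina overlapped P3, and the rise was 2.78 (SE 0.16, adjusted p 1.18e-15), 6.87-fold. Gnat2, cone transducin, rose by 0.79 from an already high mean of 12.61. Opn1mw, the medium wavelength opsin, rose by 0.36 with an adjusted p of 0.0315, a call that was lost with slide as a block and without any of 6 of the retinas in turn, and then by 5.16 from P6 to P10. Another Opn1mw probe, dim at both ages, was also higher past the threshold (adjusted p 0.000151). Opn1sw, the short wavelength opsin, gave 0.30 with an adjusted p of 0.105. Rorb, a factor of both photoreceptor types, was the lower member at -0.30, and this call too was lost with slide as a block. Rxrg did not pass, at 0.11. The lists share members: Grk1 counts as rod and cone.

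Structural genes of the outer segment and cilium rose in 21 of 27 cases and fell in none, with a median of 0.79 (0.95 within slide 3). Rp1, a microtubule protein of the photoreceptor axoneme, rose by 2.24. Prph2, which shapes the rims of outer segment discs, measured 14.56, 14.63, 14.93, 14.51 and 14.38 at P3 and 16.43, 16.64, 16.71, 16.66 and 16.59 at P6. It rose by 2.00 (adjusted p 2.93e-14), 4.01-fold, with the ages far apart. Rom1, its partner, was the brightest of the list. Rpgr, a retinitis pigmentosa gene of the connecting cilium, gave -0.43 with an adjusted p of 0.0548 although the ages did not overlap, and both of its other probes were lower past the threshold, at -0.50 and -0.44. Crb1, the Crumbs gene of photoreceptors and Müller glia, gave -0.33 (adjusted p 0.904) although the ages did not overlap. Its error in the fit over all groups was wide (SE 1.30), and its other probe was lower by 0.34 (adjusted p 0.0456). Crb2, floxed on the F allele in these mice, measured 11.33, 11.50, 11.45, 11.41 and 11.35 at P3 and 12.22, 12.14, 12.22, 12.21 and 12.20 at P6. It rose by 0.79 (adjusted p 1.21e-09) with no overlap. By the study's account of the allele, its probe lies outside the stretch that Cre removes, so intact and recombined transcripts are not told apart. Crb3 did not pass, at 0.05.

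Bipolar genes rose in 23 of 30 cases, with 1 lower. Grm6, the glutamate receptor of ON bipolar dendrites, read 5.16, 5.02, 5.17, 4.38 and 3.81 at P3 and 10.56, 10.90, 10.93, 10.79 and 10.71 at P6 (probe on mm9 chr11:50679649-50679708). None of the 5 retinas at P3 and all 5 at P6 were well above background. The rise was at least 35.2-fold against the P3 background limit, and the adjusted p of the fitted difference was 1.35e-17. Vsx1, a factor of cone bipolar cells, measured 5.94, 6.12, 5.58, 6.82 and 6.21 at P3 and 10.34, 10.36, 9.80, 9.95 and 9.94 at P6. The P6 retinas all exceeded P3 by nearly 3 units or more, and Vsx1 rose by 3.94 (adjusted p 8.32e-18), with 3 of 5 retinas well above background at P3, so that the size rests in part on background values. Scgn, a calcium binding protein of cone bipolar cells, rose at least 5.42-fold from background. Lhx3, a factor outside the list, rose by 2.76, from a mean of 9.07 to 11.83.

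Slower bipolar genes were also separated by age. Isl1, which marks ON bipolar cells and cholinergic amacrine cells, measured 10.03, 9.93, 9.89, 9.97 and 10.06 at P3 and 10.99, 10.95, 10.90, 10.79 and 10.66 at P6. It rose by 0.88 (adjusted p 5.84e-08). Prkca, the rod bipolar kinase, rose by 1.03 in its brightest probe, while its other probe stayed at -0.01 (adjusted p 0.963). Irx5, an OFF bipolar factor, fell by 1.10, the only fall. The median of the list was 0.70 with Grm6 and Scgn as fitted or at their bounds, 0.88 within slide 3 and 0.78 with slide as a block.

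Genes outside the lists also rose steeply. Gsg1, named for its expression in germ cells, measured 6.49, 6.29, 6.41, 5.77 and 6.31 at P3 and 12.41, 12.16, 12.35, 11.85 and 12.10 at P6 (probe on mm9 chr6:135187350-135187409). It rose by 5.92 (SE 0.14, adjusted p 3.68e-25), 60.6-fold, with 4 of 5 retinas above background at P3, and its lowest P6 retina stood more than 5 units above its highest P3 retina. Otor, a secreted protein known from the cochlea, went from background in all P3 retinas to 5 of 5 above it at P6, at least 30.6-fold higher, and measured 5.44, 5.60, 5.35, 5.03 and 5.70 at P3 and 10.74, 10.92, 10.82, 10.51 and 10.26 at P6. Aqp6, an aquaporin, was at least 5.86-fold higher, but its other probe, which was dim, did not pass. Vcam1, an adhesion molecule, rose by 2.79 with non-overlapping ages.

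For some genes the probes or the retinas did not give the same answer. The brightest probe of Cabp5, a bipolar calcium binding protein, read 11.52, 12.35, 10.18, 12.40 and 11.42 at P3 and 9.91, 12.45, 12.24, 12.95 and 13.24 at P6. P3 replicate 3 and P6 replicate 1 were low, the ages overlapped, and the difference of 0.58 did not pass (adjusted p 0.425). Another Cabp5 probe rose by 0.37. Trpm1, the channel that Grm6 controls, gave 0.51 (adjusted p 0.452), then 1.49 (adjusted p 2.47e-07) from a dim P3 level and 0.26 (adjusted p 0.453) in its other probes. Probes of a gene passed the threshold in opposite directions in 26 of 6247 genes that have several.

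Müller glia genes moved both ways, 11 of 30 up and 6 down, with a median of 0.02 (0.22 within slide 3, -0.06 among Cy5 retinas). Car14, a membrane carbonic anhydrase, measured 10.41, 10.31, 10.54, 10.75 and 10.45 at P3 and 12.32, 12.20, 12.08, 12.42 and 12.06 at P6. It rose by 1.72 (adjusted p 1.35e-16) without overlap. Mlc1, a membrane protein of glia, rose by 1.50. Rlbp1, the retinaldehyde binding protein of Müller glia, gave 12.89, 12.99, 13.19, 13.00 and 12.86 at P3 and 14.31, 14.34, 14.19, 14.17 and 14.13 at P6. No P6 retina fell under 14 and no P3 retina exceeded 13.19, a rise of 1.24 (adjusted p 5.93e-12). Apoe rose by 1.09. Other genes known from mature glia did not rise alike. Glul, glutamine synthetase, measured 13.31, 13.14, 13.16, 13.21 and 13.40 at P3 and 13.00, 12.96, 12.85, 12.93 and 12.90 at P6. It fell by 0.32 (adjusted p 0.000521) and then rose by 1.36 from P6 to P10. Slc1a3, the glutamate transporter, rose by 0.29, a call that was lost with slide as a block. Dapl1 fell by 1.11, the largest fall in the list. Dbi, the brightest member, gave 0.06 (adjusted p 0.797), and Abca8a was not above background.

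Amacrine genes moved both ways, 11 of 24 up (7 with slide as a block) and 7 down, with a median of 0.19. Ptf1a, the factor that commits precursors to amacrine and horizontal fates, read 11.15, 10.96, 10.81, 10.75 and 11.03 at P3 and 7.82, 7.83, 8.27, 8.31 and 8.27 at P6. It fell by 2.84 (SE 0.19, adjusted p 3.45e-14), and P6 levels were 2.4 units or more under P3. Slc5a7, the choline transporter of starburst cells, rose by 1.65, and Calb1, a calcium binding protein, by 1.05. Of the GABA synthesising enzymes, Gad1 rose by 0.57 and Gad2 fell by 0.65. Slc32a1, the vesicular inhibitory transporter, rose by 0.42, with no call in its other probe or with slide as a block. Tfap2b, an amacrine and horizontal factor, fell by 0.55, with P3 replicate 2 the highest of its age. Neurod2 did not pass, at -0.04, and Barhl2 was not above background.

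Ganglion cell genes had a median near 0 (-0.01), with 6 of 22 up and 5 down. Both shares were near those of the probes well above background in a group, 5356 and 5101 of 25119. Nefh, the heavy neurofilament of large axons, measured 9.80, 10.09, 10.05, 9.65 and 9.80 at P3 and 11.32, 11.60, 11.26, 11.22 and 11.17 at P6. It rose by 1.44 (adjusted p 2.37e-13) without overlap, ahead of Thy1 at 0.59 and the light neurofilament Nefl at 0.42. Pou4f2 fell by 0.44 and Pou4f3 by 0.55, with P3 replicate 5 high for the latter, while the factors Ebf1 and Ebf3 rose and Pou4f1 did not pass. Stmn2, the brightest, gave 0.01 (adjusted p 0.97). Horizontal cell genes were 5 of 12 up (3 with slide as a block) and 2 down, with a median of 0.23. That median was 0.23 within slide 3, 0.07 among Cy5 retinas and 0.15 with slide as a block. Septin4 rose by 1.21. Lhx1, the factor that places horizontal cells, rose by 0.54, with 0.43 and no call in its other probe, and Onecut2 did not pass, at -0.07. The brightest of that list was Tpm3.

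Synapse genes rose in 26 of 39 cases and fell in none, with a median of 0.68 (0.85 within slide 3). Cabp4, which tunes calcium channels of photoreceptor terminals, rose by 2.42, from 3 of 5 retinas above background at P3 to 5 of 5 at P6. Slc17a7, the vesicular glutamate transporter of photoreceptors and bipolar cells, measured 7.34, 7.55, 8.04, 7.49 and 7.60 at P3 and 9.83, 9.73, 9.58, 9.75 and 9.81 at P6. It rose by 2.14 (adjusted p 2.21e-15), 4.4-fold, with no overlap. Gabrr1, a GABA receptor subunit of bipolar terminals, rose by 1.86. Ctbp2, whose product Ribeye builds the ribbon, rose by 0.45. Syn1, a synapsin of conventional synapses, did not pass, at 0.20 (adjusted p 0.438). Rab3a was the brightest, and Elfn1 and Glra1 were not above background.

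**Figure D4:**
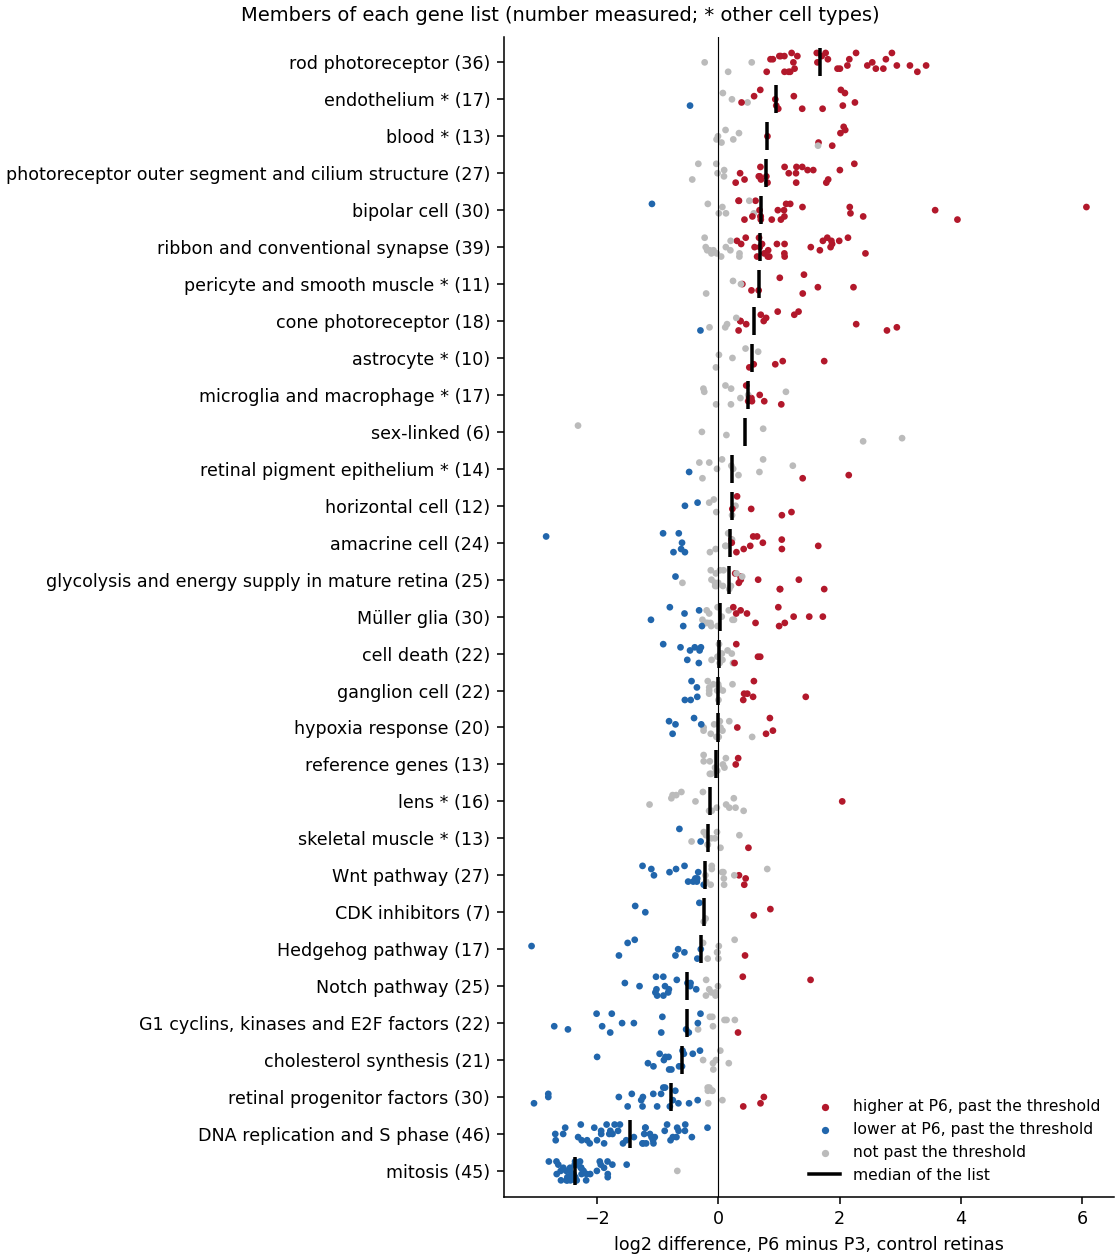
Each point is a member of a gene list at its log2 difference, P6 minus P3, in control retinas (horizontal axis), with lists on the vertical axis in order of their median (black bar) and colour for direction past the threshold. The mitosis median of -2.36 is the lowest and the rod median of 1.67 the highest, while the median over all genes was -0.00.

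In the Notch list, a pathway known to act in progenitors, 16 of 25 fell (also 16 with slide as a block) and 2 rose, with a median of -0.51 (-0.53 within slide 3). Hes5, the Notch effector of progenitors and glia, measured 16.42, 16.39, 16.20, 16.55 and 16.56 at P3 and 15.44, 15.45, 15.43, 15.34 and 15.40 at P6. The P6 retinas were within about 0.1 of each other and all under P3, a fall of 1.01 (adjusted p 1.68e-09). Hes1 fell by 0.91, Heyl by 1.54 and the ligand gene Dll4 by 1.30. The ligand gene Jag1 went up, with levels of 8.21, 8.31, 8.42, 8.07 and 8.26 at P3 and 9.74, 9.92, 9.84, 9.81 and 9.56 at P6. It rose by 1.52 (adjusted p 2.56e-13). Rfng, a Notch glycosyltransferase, did not pass, at -0.01.

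Hedgehog genes fell in 9 of 17 cases (7 with slide as a block) and 1 rose, with a median of -0.29 (-0.23 within slide 3, -0.47 among Cy5 retinas). Gli1, the target gene that reads out the pathway, measured 11.45, 11.20, 10.93, 11.39 and 11.34 at P3 and 8.21, 8.05, 7.96, 8.19 and 8.50 at P6 (probe on mm9 chr10:126766967-126767026). Every P6 retina lay more than 2 units under P3, and it fell by 3.08 (SE 0.16, adjusted p 8.14e-17), 8.46-fold. Hhip, a target that binds the ligand, fell by 1.64. Cdon, a coreceptor, rose by 0.44, which its other probe (0.01) and the slide block did not show. Smo was the brightest member.

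The Wnt list had 13 of 27 lower (8 with slide as a block) and 3 higher, with a median of -0.21. Sfrp2, a secreted Wnt binding protein of progenitors, fell by 1.25 and Wnt7b by 1.11, to 3 of 5 retinas above background at P6. Fzd4, the receptor for norrin in vessels, rose by 0.45. Ctnnb1 did not pass, at -0.21. Dkk3 was the brightest, and Dkk1 was not above background. Cell death genes had a median of 0.02, with 4 of 22 up (2 with slide as a block) and 8 down. Casp8 fell by 0.91 and Bcl2 by 0.62. Bmf, a proapoptotic member of the Bcl2 family, rose by 0.69 with overlapping ages (exact permutation p 0.0159). Mcl1 did not pass in its brightest probe, at 0.03, and fell by 0.38 in its other. Bcl2l1 was the brightest.

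Cholesterol synthesis genes fell in 15 of 21 cases and rose in none, with a median of -0.60 (-0.48 within slide 3 and -0.54 with slide as a block). Idi1, an isomerase of the pathway, measured 12.96, 12.82, 12.82, 13.19 and 13.27 at P3 and 11.94, 11.85, 11.84, 11.86 and 11.75 at P6. It fell by 1.16 (SE 0.09, adjusted p 5.44e-12), with no overlap. Pmvk did not pass, at 0.17, and Hmgcs1, the entry enzyme, was the brightest. CCAAT was found in 14 of the 15 promoters of the list in the table (93.3%), against 34.5% of all.

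Hypoxia genes had a median of -0.01, with 4 of 20 up and 5 down. Such shares were near those of the probes well above background in a group, 5356 and 5101 of 25119. Car9, a carbonic anhydrase, fell by 0.81 and Pdk1, a pyruvate dehydrogenase kinase, by 0.75. Ankrd37 rose by 0.90. Ldha, the brightest, did not pass at 0.18 although the ages did not overlap, and its other probes rose by 0.38 and 0.40. Genes of glycolysis and energy supply were 9 of 25 up and 1 down, with a median of 0.18. Aldoc, the aldolase of neural tissue, measured 12.91, 12.75, 13.06, 12.82 and 12.79 at P3 and 14.39, 14.48, 14.82, 14.75 and 14.63 at P6. It rose by 1.75 (adjusted p 9.81e-14), 3.35-fold, ahead of the mitochondrial creatine kinase Ckmt1 at 1.33. Hk2, a hexokinase of photoreceptors, fell by 0.71 with overlapping ages, and then rose by 0.86 to P10. Gapdh was the brightest, at 0.07 (adjusted p 0.662). Among 13 reference genes 2 rose, Hprt by 0.33 and Sdha by 0.29, both calls lost with slide as a block, around a median of -0.04. Actb gave -0.12 while its other probe fell by 0.45 (adjusted p 0.00232), and Ppia was the brightest.

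Genes of cells other than retinal neurons and Müller glia also changed. Endothelial genes rose in 13 of 17 cases with 1 lower, and a median of 0.95 (0.95 within slide 3), the same with Emcn at its bound. Tie1, an endothelial receptor, measured 5.36, 4.99, 6.03, 5.43 and 5.49 at P3 and 8.06, 7.75, 7.40, 7.56 and 7.77 at P6. It rose (adjusted p 8.11e-07), with 1 of 5 retinas above background at P3 and 5 of 5 at P6. Robo4 rose by 2.09. Kdr, a VEGF receptor that retinal progenitors and neurons also express, was the brightest and fell by 0.47, with -0.12 and no call in its other probe. Cldn5 did not pass, at 0.48, and Erg was not above background. Summed over the list, the level was 14.25, 14.28, 14.35, 14.33 and 14.31 at P3 and 14.52, 14.37, 14.07, 14.22 and 14.34 at P6. These sums overlapped between ages, but the bright Kdr, which fell, weighs most in them, so they say little of endothelium.

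Pericyte genes rose in 8 of 11 cases and fell in none, with a median of 0.66, the same with Anpep at its bound. Rgs5 rose by 2.23, and Anpep at least 2.37-fold from background. The forkhead gene Foxf2, known from brain pericytes, was at least 3.14-fold higher. Notch3 did not pass, at -0.20. The summed levels were 11.38, 11.34, 11.26, 11.47 and 11.47 at P3 and 12.65, 12.44, 11.99, 12.26 and 12.16 at P6. All P6 sums were above all P3 sums, Myl9 was the brightest member and Des was not above background. What part vessel cells had in the changes of shared genes was not tested.

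Microglia genes rose in 8 of 17 cases and fell in none, with a median of 0.49. Ctss, a protease of microglia, rose by 1.04 and Trem2 by 0.76. Itgam, the brightest, was low in P3 replicate 3 and P6 replicate 1, as Cabp5 was, and did not pass, at 0.49. Cd163 was not above background. Their summed levels were 14.62, 14.93, 14.34, 15.26 and 14.57 at P3 and 14.83, 15.35, 15.42, 15.31 and 15.57 at P6, with overlap. The bright Itgam, which varied between retinas, weighs heavily in these sums, so they say little of the other members. Astrocyte genes rose in 5 of 10 cases and fell in none, with a median of 0.55. S100b rose by 1.06, while Fabp7, the brightest and also a progenitor gene, gave 0.01. Sums were 16.08, 16.05, 16.16, 15.74 and 15.78 at P3 and 16.14, 16.10, 16.52, 16.47 and 16.59 at P6, again with overlap. Fabp7 weighs most in them, so they say little of astrocytes.

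Blood transcripts rose in 6 of 13 cases and fell in none, with a median of 0.81, 1.15 within slide 3 and 0.27 among the Cy5 retinas. Hba-a2, the alpha globin and the brightest, measured 14.35, 13.95, 13.45, 13.46 and 13.33 at P3 and 17.12, 15.76, 15.32, 15.37 and 15.43 at P6. P6 replicate 1 stood well above the rest, and the rise of 2.09 (adjusted p 0.0297) did not pass without that retina, or without any of P3 replicates 3 to 5. Hbb-b2 rose by 2.07. Slc4a1, the red cell anion exchanger, did not pass, at 0.34, and Ppbp and Epb42 were not above background. The sum was 14.92, 14.57, 14.04, 14.02 and 13.91 at P3 and 17.60, 16.31, 15.95, 15.90 and 15.94 at P6, higher in every P6 retina. How blood contributed to other results was not tested.

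Lens and pigment cell transcripts varied from retina to retina. In the lens list 1 of 16 rose and none fell, with a median of -0.13 (0.00 within slide 3). Cryaa measured 14.10, 9.81, 10.55, 7.49 and 9.43 at P3 and 7.62, 7.86, 8.97, 11.17 and 10.09 at P6. P3 replicate 1 was far above the others, and the summed level of the list was 15.25, 11.93, 12.15, 11.33 and 11.89 at P3 and 12.48, 12.27, 12.54, 13.28 and 12.88 at P6. Cryab, the brightest and also a glial protein, read 11.25, 8.93, 9.25, 8.63 and 8.89 at P3 and 11.54, 11.23, 11.27, 11.60 and 11.53 at P6. It rose by 2.04 (adjusted p 0.000271) with P3 replicate 1 inside the P6 range, and its other probe by 1.90. Lim2 was not above background. Without P3 replicate 1 the number of probes past the threshold was 9239. Pigment epithelium genes were 2 of 14 up and 1 down, with a median of 0.23 that turned to -0.00 within slide 3. Rpe65, the isomerase of the visual cycle, rose (adjusted p 8.35e-06) from 1 of 5 retinas above background to 5 of 5. Rgr, which Müller glia also express, rose by 1.39, and Rrh fell by 0.48. Dct, the brightest, gave 0.33, with P3 replicate 3 low at 11.49, and Best1 was not above background. Summed pigment levels were 14.19, 14.24, 13.56, 14.40 and 14.27 at P3 and 14.64, 14.26, 14.08, 14.74 and 14.54 at P6, with overlap. The part of these cells in other results was not tested.

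Skeletal muscle genes were 1 of 13 up and 2 down, with a median of -0.17. It was -0.11 within slide 3, -0.08 among Cy5 retinas and -0.05 with slide as a block. Sums were 10.56, 10.46, 10.62, 10.60 and 10.69 at P3 and 10.68, 10.38, 10.29, 10.38 and 10.42 at P6. Acta1 rose by 0.50, and Myh3, the brightest, fell by 0.64, a call that was lost with slide as a block, as was that of Atp2a1 at -0.29. Tnnc2 did not pass, at -0.06, and Myh1 and Myh2 were not above background. Of the 6 sex-linked transcripts none passed, with a median of 0.44. With slide as a block 2 of them rose and 1 fell, with a median of 1.25. Eif2s3y, a Y-linked gene and the brightest, measured 5.53, 5.05, 11.43, 1.93 and 11.70 at P3 and 11.71, 11.43, 11.52, 4.63 and 11.49 at P6. The levels fall into high and low retinas within both ages, with 2 of 5 above background at P3 and 4 of 5 at P6. With Xist as a covariate, 10012 probes passed.

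The interval can be set beside those before and after it, which share its P3 or P6 retinas, so that values stand side by side and the limma test of the difference is given. From P0 to P3, 3235 genes were higher (10.2%) and 2693 lower (8.47%). From P6 to P10, an interval of 4 days with the P10 genotypes in doubt as stated above, 4464 were higher (14%) and 4835 lower (15.2%). The change of 3581 probes (9.12%) from P3 to P6 differed from that of P0 to P3, and the change of 4962 (12.6%) differed between P6 to P10 and P3 to P6. With slide as a block the counts were 2811 and 5943, with 2105 and 3997 of these probes shared. Control P0 replicates 1 to 4 were on slide 1, apart from all P3 retinas. Scaling each channel to its 75th percentile instead of quantiles left 960 and 2395, and moved the median of these contrasts over all probes by 0.14 and 0.58.

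The cell cycle fell mainly after P3. The mitosis median was -0.23 up to P3, -2.36 between P3 and P6 and -2.09 thereafter, and for 44 of 45 members the fall differed from that of P0 to P3. In the replication list the medians were -0.40, -1.46 and -0.74, with 38 of 46 members different from P0 to P3 and 27 from P6 to P10. Mki67 itself went by -0.53, -2.60 and -3.34 in the 3 intervals. Fbxo5 (-0.24, then -2.28; adjusted p of the difference 5.91e-12) and Ect2 (-0.16, then -2.60; 5.91e-12) had the lowest p for a steeper fall than from P0 to P3. From P0 to P3, Gli1 had already changed by -1.95 and Fgf15 by -1.50.

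**Figure D5:**
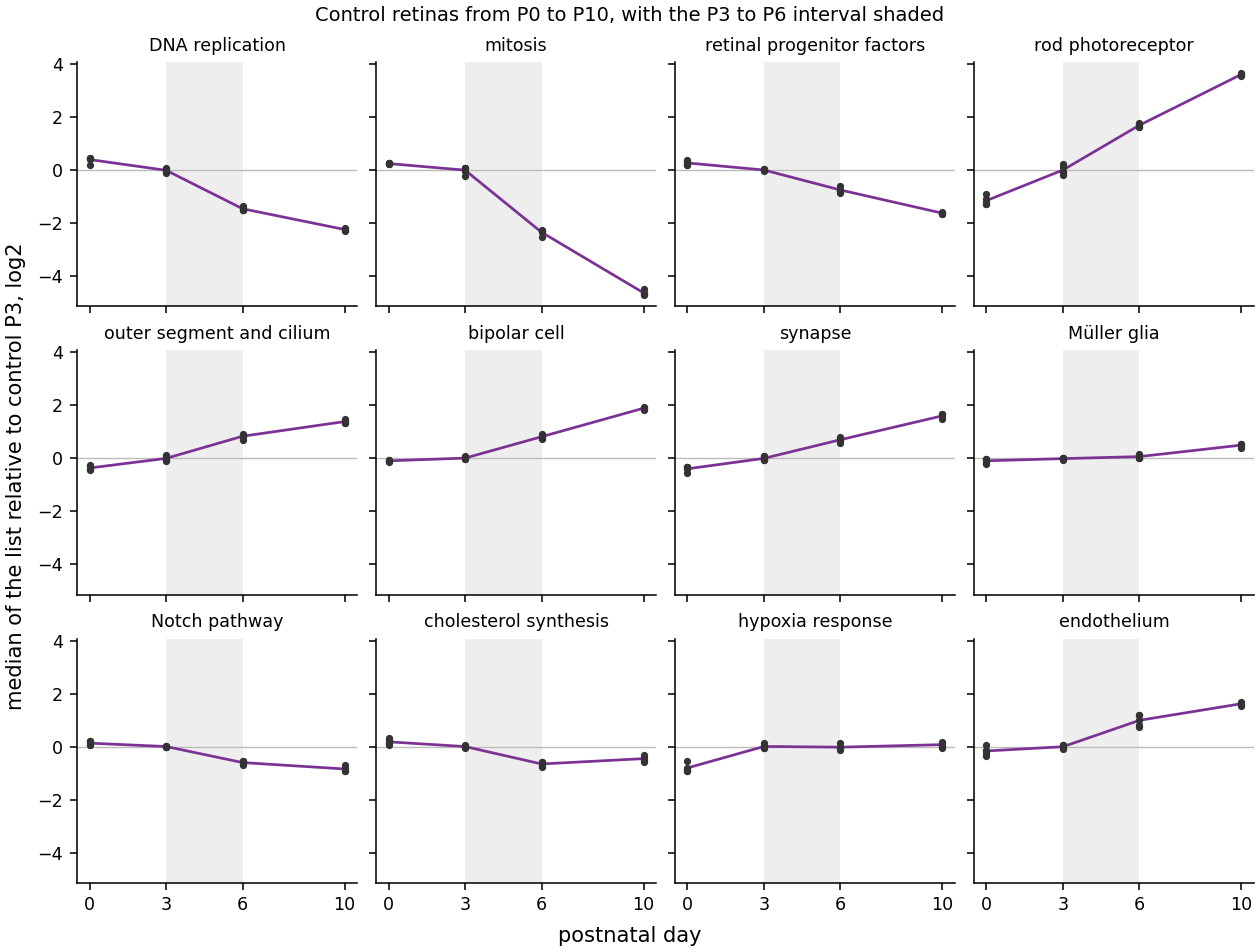
Each point is a control retina, at its postnatal day (horizontal axis), with the median over a gene list of its log2 level relative to the mean of control P3 on the vertical axis; lines join the means of each age and the P3 to P6 interval is shaded. The mitosis and replication lists fall more steeply after P3, the bipolar list turns upward, the rod list climbs through all ages, and the hypoxia list rises before P3 and then stays near 0.

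Rod genes had medians of 1.13, 1.67 and 1.45, with Pde6a at 0.90, 3.28 and 3.63. Nrl gained 1.50 before P3, 1.30 from P3 to P6 and 0.46 after. Bipolar genes had medians of 0.12, 0.70 and 1.16. Gsg1 (0.01, then 5.92; adjusted p of the difference 1.19e-17) and Gabrr1 (-0.28, then 1.86; 1.6e-11) rose more than from P0 to P3. Otor and Grm6 were at background at P3, and Grm6 rose by a further 3.11 from P6 to P10. Otor and Gsg1 slowed after P6, to 0.36 and 1.34, and Necab3, which rose by 1.27 up to P6, fell by 1.03 after it. Drd4, a dopamine receptor of photoreceptors, gained 0.73 and then 5.38. Cbln1, a synaptic organiser, rose by 2.62 before P3 and gave 0.10 after. Hypoxia genes rose in 16 of 20 cases from P0 to P3, with a median of 0.78. Cholesterol genes had medians of -0.19, -0.60 and 0.16, and 14 of 21 members differed between P3 to P6 and P6 to P10. The Müller median from P6 to P10 was 0.38, and the microglia median from P0 to P3 was 0.81.

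In cKO retinas, which share arrays with the controls but are other animals, 11010 probes passed between P3 and P6 (28%), with 4819 genes higher (15.2%) and 4052 lower (12.7%). Their list medians were -2.25 for mitosis, -1.40 for replication, 1.75 for rods and 0.62 for bipolar cells. Pde6a rose by 3.23 there and Gsg1 by 6.12, while Mki67 fell by 2.84 and Gli1 by 3.32. The limma test of the difference between control and cKO in the change passed the threshold for 0 of 39283 probes (0%), with 346 at an unadjusted p under 0.05. With array as a random block and dye as a covariate the number past the threshold was also 0, with 2110 at an unadjusted p under 0.05 (446 with dye alone). The lowest p for a larger rise in controls belonged to Glra3, Slco1c1 and Lrrc17. Slco1c1, an organic anion transporter of vessels, gained 0.69 in controls and 0.16 in cKO, a difference that did not pass (adjusted p 1). Chodl, at -0.49 in controls and -0.11 in cKO, did not pass either (adjusted p 1). Glra3, Lrrc17, Srd5a2 and Ereg were not above background in any control retina of either age.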

How the data were processed

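The work used R 4.3.3, limma 3.58.1, Python 3.11.15, pandas 2.3.3 and scipy 1.17.1. The authors' files give scanner intensity, the mean signal and local background median of each feature and channel, from Feature Extraction 9.5. The deposited table holds log2 values that the authors background corrected (normexp) and quantile normalised across channels with limma, and it served as an alternative. Here the scanner signals were corrected by normexp with offset 0, quantile normalised over all channels and averaged per probe. The 2 channels of an array were treated as separate samples. A limma fit of 8 groups (genotype by age) over 38 retinas gave each contrast, with Benjamini-Hochberg adjustment over 39283 probes. A feature is well above background where the scanner software calls it so. RefSeq accessions matched 25966 probes, 3352 of them with a symbol other than the array's. Members and lists were chosen with earlier results of these data known, and named genes by rules on these values: fixed genes, largest changes, genes above background at 1 age only, list extremes and brightest members, and lowest p between contrasts. RefSeq promoters are of GRCm38.p6, and probe positions mm9. A bound puts the group below background at its background limit. It is taken from loess normalised values, not from the quantile normalised levels printed beside it. Tests of single genes beside limma are exact permutation tests over retinas. Results of some genes are not reported here.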

Additional observations from a re-analysis of the deposited data

Results flagged for a closer look

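Among 328 tests of the named genes (5 control retinas of an age each), Dixon's ratio of the gap beside the most extreme retina to the range of the 5 passed its 5% critical value in 17, about the 1 in 20 that chance gives. P6 replicate 1 is the retina in 4 of them: low for Grk1 (ratio 0.712) and Itgam (0.756), and high for Hba-a2 (0.756) and Slco1c1 (0.722). P6 replicate 2 was low for Crb2 (0.782) and Atoh7 (0.761) and high for Necab3 (0.738), P6 replicate 3 low for Prdm1 (0.768) and P6 replicate 4 low for Eif2s3y (0.96). At P3, replicate 1 was high for Cryab (0.762) and replicate 2 for Tfap2b (0.738). Replicate 3 was low for Foxn4 (0.76) and Dct (0.723). Replicate 4 was high for Ccdc60 (0.786) and low for Gsg1 (0.716). Replicate 5 was high for Pou4f3 (0.735) and Slc4a1 (0.755). Leaving these retinas out in turn is among the alternatives. The brightest probes of Cabp5 and Itgam were low in the same retinas, and why was not tested.

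Age and slide overlap in this design: only slide 3 holds both ages of controls, and P6 replicates 3 to 5 were scanned on a later day than all P3 controls. Each value is a mean over all cell types of a retina, and sex was not given by the labels.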

How the results depend on the processing

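Over all alternatives except leaving out a retina, 80 counts stayed within 1.5 times the reported count and 9 did not. Scaling each channel to its 75th percentile gave 5284 probes for control P3 to P6 (2930 higher, 2354 lower), 5662 for cKO, 960 for the contrast with P0 to P3 and 2395 for the contrast with P6 to P10. Within slide 3, 1460 probes passed (741 higher, 719 lower), with 2 retinas of each age. The replicate block, which pairs retinas of equal replicate number across ages, gave 10381 probes (5246 higher, 5135 lower). Across probes, deviations of the paired retinas from their group means correlated from -0.119 to 0.0147. With slide as a block 8532 passed, with array as a random block and dye as a covariate 10543 (10583 with dye alone), with loess normalisation 10064 and with the deposited values 10081 of 39429. Leaving out each control retina in turn gave 9239 to 10066 probes (4748 to 5060 higher, 4367 to 5006 lower). For the contrasts these alternatives were chosen after seeing the data: 10866 to 11116 for cKO, 2406 to 3964 against P0 to P3, 3901 to 4831 against P6 to P10, and 0 for control against cKO.

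Of the values of named genes, 1676 kept their call, 112 lost it and 15 gained it. Where a value passed in neither setting, a change of direction was not counted. A further 1 changed sign, that of Ereg, below background, at 0.0273 with the scanner's processed signals. Of the lost calls 52 were within slide 3, 29 with 75th percentile scaling, 12 with Cy5 retinas only and 10 with slide as a block. Leaving out a retina lost 33 calls and gained 7. List medians moved by more than the spread between retinas in 46 cases and stayed in 294, and some medians near 0 changed sign, as within slide 3 for pigment epithelium (-0.0046), lens (0.0008), reference genes (0.0406) and cell death (-0.008), and in Cy5 retinas for Müller glia (-0.0629). Over the whole window, 1 promoter share moved, that of the cell cycle homology letters in mitosis promoters.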
